A study of Mus musculus with 6 samples.

Results

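Bile acid synthesis, transport and sensing was examined through 10 genes in liver cells selected magnetically through F4/80, an antigen that marks macrophages in mice. They were taken by gene symbol, and each was represented by its most abundant transcript by mean of the 6 libraries, giving 10 of the 23394 genes in the deposited tables. Male C57BL/6 mice, 3 months old and kept on normal chow, all received intraperitoneal carbon tetrachloride (CCl4), a hepatotoxin used to induce fibrosis. Wild-type (WT) mice gave 3 libraries and knockout (KO) mice gave 3, and genotype was the only label that separated them. The labels name neither the gene that was knocked out nor any Cre driver, and they do not tie libraries to individual animals, so that p-values here reflect the spread among these libraries, which may be technical. After CCl4, Baat, Cyp8b1 and Nr1h4 were higher in KO, by 9.11, 13.6 and 3.87 times in mean level. These 3 passed limma's test over all genes, which 2.44% of all tested genes passed. None of the 3 did when KO replicate 3 was left out, a fit in which only 8 of all genes passed. The mean log2 level of 20 hepatocyte markers was also higher in KO, by 1.99. Cyp27a1 lay at the same level in both genotypes within its spread. Cyp7a1, which did not pass the filter on low values, went from 108 reads over the WT libraries to 2 over the KO libraries.

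Bile acids are made from cholesterol in hepatocytes. In the classical route Cyp7a1 carries out the rate-limiting hydroxylation and Cyp8b1 adds the hydroxyl group that makes cholic acid, while Cyp27a1, a mitochondrial enzyme also known in macrophages, opens the acidic route and oxidises the side chain. Slc27a5 and Baat then join bile acids to coenzyme A and to taurine or glycine. Slc10a1 and Slco1b2 take bile acids up from the blood and Abcb11 exports their conjugates into the canaliculus. The nuclear receptor FXR, encoded by Nr1h4, is activated by bile acids and induces Nr0b2, which encodes the corepressor SHP, and Abcb11. SHP is known to restrain Cyp7a1 and Cyp8b1 by acting on NR5A2 and HNF4A.

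Promoter sequences are shown for 4 members whose known regulation ties them to this circuit: Cyp8b1, a target of HNF4A and NR5A2, Nr0b2, a target of NR5A2 and FXR, and the transporter genes Abcb11 and Slco1b2. They run from 250 bases before to 50 bases after the start site, are credited to RefSeq with build GRCm38.p6, and were matched for 7 of the 10 members. They are written 5′ to 3′ on the strand of the gene: Cyp8b1 at chr9:121916256-121916555 on the minus strand, Nr0b2 at chr4:133553126-133553425 on the plus strand, Abcb11 at chr2:69342567-69342866 on the minus strand and Slco1b2 at chr6:141629268-141629567 on the plus strand. Capitals mark matches, on either strand, to the motifs CAAAGTCCA (a core of HNF4A), TCAAGG and CAAGGNCA (cores of NR5A2), AGGTCA (a hexamer of nuclear receptors), an inverted repeat of the kind FXR binds (AGGNCA, 1 further base of any kind, then TGACCT, so that its second part is that hexamer on the opposite strand), GTTAAT (part of the site of HNF1) and TATAAA (the TATA box).
Cyp8b1: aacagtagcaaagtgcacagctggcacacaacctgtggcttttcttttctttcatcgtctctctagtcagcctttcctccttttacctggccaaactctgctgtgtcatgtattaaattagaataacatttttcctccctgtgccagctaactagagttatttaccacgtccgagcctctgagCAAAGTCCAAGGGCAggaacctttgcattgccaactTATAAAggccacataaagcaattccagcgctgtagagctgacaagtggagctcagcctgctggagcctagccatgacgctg
Nr0b2: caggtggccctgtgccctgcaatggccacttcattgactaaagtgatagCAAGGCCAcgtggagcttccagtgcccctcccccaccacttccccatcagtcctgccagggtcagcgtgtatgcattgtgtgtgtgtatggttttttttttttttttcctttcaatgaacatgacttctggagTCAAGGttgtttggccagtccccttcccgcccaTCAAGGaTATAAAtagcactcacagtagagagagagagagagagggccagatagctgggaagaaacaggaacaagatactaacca
Abcb11: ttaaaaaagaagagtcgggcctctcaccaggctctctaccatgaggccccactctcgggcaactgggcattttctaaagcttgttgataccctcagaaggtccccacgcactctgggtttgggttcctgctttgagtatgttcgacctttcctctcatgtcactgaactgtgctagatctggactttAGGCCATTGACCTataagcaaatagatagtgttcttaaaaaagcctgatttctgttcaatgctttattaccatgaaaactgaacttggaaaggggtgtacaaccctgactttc
Slco1b2: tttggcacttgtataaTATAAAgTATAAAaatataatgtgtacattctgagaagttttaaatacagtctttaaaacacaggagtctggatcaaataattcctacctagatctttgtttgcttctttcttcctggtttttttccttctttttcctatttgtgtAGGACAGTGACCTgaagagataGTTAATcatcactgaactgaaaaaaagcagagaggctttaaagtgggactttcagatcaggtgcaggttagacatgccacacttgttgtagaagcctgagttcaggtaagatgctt

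The Cyp8b1 promoter held CAAAGTCCA 67 bases before the start site, overlapping CAAGGNCA at 60 bases before it. Of 32851 promoters of the same length, 0.475% held CAAAGTCCA and 6.71% held CAAGGNCA. The Nr0b2 promoter held TCAAGG at 68 and 35 bases before the start, a motif in 14.4% of promoters, and CAAGGNCA at 201 bases before it. The inverted repeat was found in 12 of the 32851 promoters, or 0.0365%, and Abcb11, at 63 bases before its start, and Slco1b2, at 88 bases before its start, were among these 12. AGGTCA was in 16.3%, GTTAAT in 7.1% and TATAAA in 13.6% of promoters. The motif letters were chosen after the member promoters had been read, and a match describes the letters and is no measure of binding. Of these 4 genes Cyp8b1 passed the test of KO against WT, and the values of all 4 are given by role in the paragraphs on levels.

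The libraries held 10790842 to 22157238 reads over the kept transcripts, and values are the authors' normalised counts, which are reads divided by 1 factor per library. Mitochondrial transcripts took 6.19% of reads in WT replicate 3 and 27.5% in WT replicate 2, and the KO libraries lay between. The labels call the cells macrophages, and markers of the other liver cells such a preparation could hold were measured beside the members. Adgre1, which encodes F4/80, stood at 6208 ± 1613 normalised counts in WT against 5254 ± 1233 in KO (SD, n = 3 each), a log2 change of -0.23. Csf1r, the receptor on which macrophages depend, stood at 32119 ± 7500 against 16689 ± 1352 (log2 change -0.92, limma adjusted p = 0.127). Of the 13 macrophage and Kupffer cell markers 0 passed the test and 5 had a log2 change above 0, with a median of -0.05. Their summed level ranged from 75710 to 173942 in WT and from 74011 to 97194 in KO. Hepatocyte markers were present in every library. The summed level of 20 of them ranged from 31343 to 108356 in WT and from 129419 to 246500.4 in KO libraries, all 20 had a log2 change above 0 with a median of 1.88, and 9 passed. Albumin itself, Alb, ranged from 18082 to 60777 in WT and from 64233 to 115981 in KO libraries. Cholangiocyte, endothelial, stellate and erythroid lists had median log2 changes of 1.05, 1.35, 0.63 and 3.20, against 0.05 over all 15619 tested genes. Of their tested genes, 1 of 9, 5 of 12, 1 of 8 and 0 of 7 passed. Over all tested genes 2.44% passed and 54.2% had a log2 change above 0. Summed levels in WT and KO ranged from 3608 to 8515 and from 16112 to 31258 for cholangiocyte markers, and from 27387 to 52107 and from 56421 to 112985 for endothelial markers. They ranged from 9622 to 14343 and from 17484 to 29815 for stellate markers, and from 2221 to 33339 and from 30738 to 268695 for erythroid markers. Markers at 0 in all 6 libraries numbered 0 in each list. In these bulk samples more cells of a type and more RNA per cell cannot be told apart, and the part of RNA from these other cells in the changes of the members was not tested.

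Of the 10 members, 9 passed the filter on low values and were tested, and Cyp7a1 did not. Higher levels in KO passed limma's test for 3 of the 9, and 0 passed in the other direction, while 2.44% of all tested genes passed, 2.09% as higher and 0.352% as lower. edgeR's quasi-likelihood test on recovered reads called 2, Cyp8b1 and Baat, against 1.81% of all genes. Log2 changes were above 0 for 8 of the 9, against 54.2% of all tested genes, with a median of 1.65. The 3 KO values lay above the 3 WT values for 8 of the 9, against 13.7% of all tested genes. Genes with KO below WT without overlap made up 9.25%, and both directions together 22.9%. Cyp8b1 and Nr0b2 met the filter's level in all 3 KO libraries but in only 2 of the 3 WT libraries, so the group in which they are high helped them into the test. Cyp7a1, the member lower in KO, met it in 2 WT and 0 KO libraries and was left out. The counts by direction therefore depend in part on the filter. None of the 10 members shared exon sequence with another gene in the tables. The plot of normalised counts by library shows all 10.

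**Figure D1:**
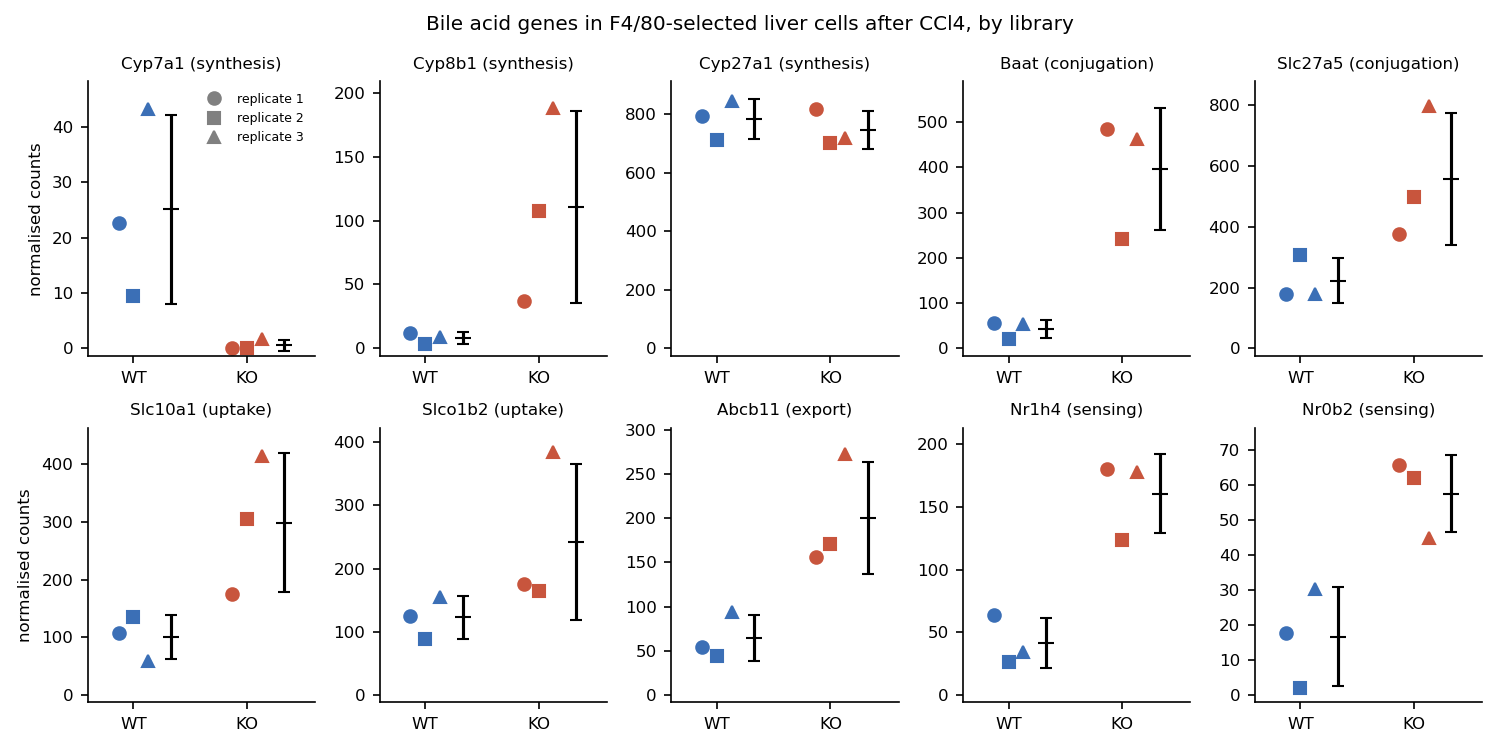
Normalised counts of the 10 genes in each library, with a linear axis for each gene; blue points are WT, red points are KO, the marker shape gives the replicate number, and the black bar is the mean ± SD of 3 libraries. The KO points lie above the WT points for 8 genes, below them for Cyp7a1, and overlap them for Cyp27a1.

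Among the synthesis enzymes, Cyp7a1 and Cyp8b1 differed between genotypes in opposite directions. Cyp7a1 (ENSMUSG00000028240) is a minus-strand gene of chromosome 4 (GRCm38, 6265612 to 6275633). It had 22, 9 and 77 reads in WT replicates 1, 2 and 3, or 22.7, 9.45 and 43.2 normalised counts. The KO libraries held 0, 0 and 2 reads, so all 3 lay below the lowest WT library. Scaled by the authors' factors, the level over the WT libraries was 39.3 times that over the KO libraries, with a 95% counting interval of 10.6 to 328. Such intervals cover counting error only, and reads without molecular identifiers are not independent molecules. Without the low-value filter, limma gave a log2 change of -4.00 (SE 0.91, adjusted p = 0.0662), in a fit where 1.25% of 23394 genes passed, and edgeR's quasi-likelihood test gave -5.01 (adjusted p = 0.0218), in a fit where 4.77% passed. Both fitted changes depend on the constant added to counts near 0. The second annotated transcript of Cyp7a1 stood at only 3.09, 0 and 3.93 normalised counts in WT replicates 1, 2 and 3. Its values of 0 in all 3 KO libraries therefore add little.

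Cyp8b1 (ENSMUSG00000050445), a gene of 1 exon on chromosome 9 at 121914356 to 121916305, rose. Its WT replicates 1, 2 and 3 held 12.4, 3.15 and 8.98 normalised counts, from 12, 3 and 16 reads, and its KO replicates held 37.2, 107 and 188, from 25, 90 and 222 reads. The groups did not overlap, and the KO libraries themselves were spread widely, with replicate 1 the lowest. The log2 change was 3.49 (SE 0.72, limma adjusted p = 0.0455), 13.6 times in mean level. That call was lost in each fit without 1 library except the fit without KO replicate 1, and reached a limma adjusted p of 0.194 without KO replicate 3. With all 6 libraries it was also lost with limma-voom on recovered reads (adjusted p = 0.103), TMM factors (0.0521), no low-value filter (0.0626) and summed transcripts (0.0686).

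The Cyp7a1 and Cyp8b1 reads of 1 library share its scaling factor, so their ratio does not depend on it. Cyp7a1 made up 64.7%, 75.0% and 82.8% of the combined reads of both genes in WT replicates 1, 2 and 3, with exact 95% intervals of 46.5 to 80.3, 42.8 to 94.5 and 73.6 to 89.8. In KO replicate 3 it made up 0.893% (2 of 224 reads, interval 0.108 to 3.19). It was not detected among 25 and 90 reads in KO replicates 1 and 2, for which the exact upper limits are 13.7% and 4.02% (3 reads of each total are 12.0% and 3.33%). The means were 74.2% ± 9.07 in WT and 0.298% ± 0.515 in KO (SD, n = 3 each), and the groups did not overlap. The two-sided exact permutation p was 0.1, the smallest that 3 libraries against 3 allow. Cyp7a1 was lower and Cyp8b1 higher in every KO library than in every WT library. The lack of overlap and the p of the share follow from that and are no further test. This share was chosen as a measure after the values had been seen.

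**Figure D2:**
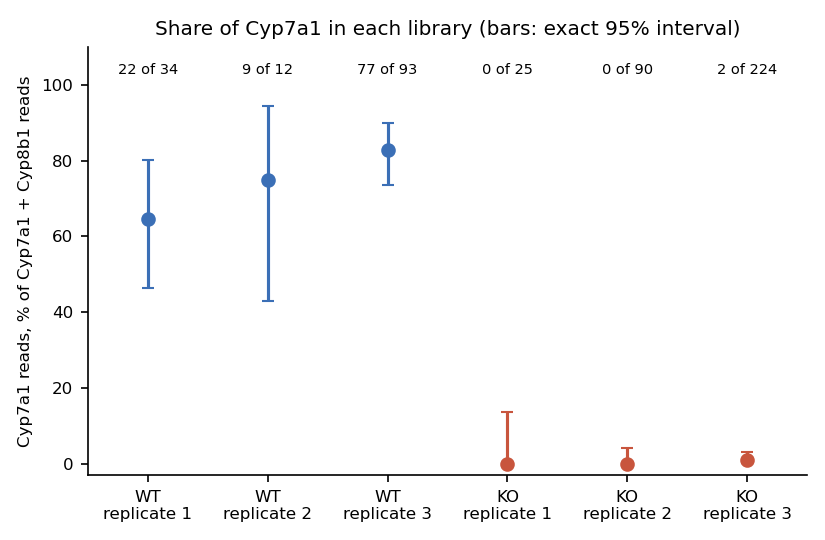
Share of Cyp7a1 among the reads of Cyp7a1 and Cyp8b1, in percent, for each library, with exact 95% binomial intervals as bars and the read counts printed above. The WT libraries sit between 64.7% and 82.8% and the KO libraries at or below 0.893%.

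Cyp27a1 (ENSMUSG00000026170, chromosome 1, 74713574 to 74737892, plus strand) behaved unlike the other members. Its WT libraries held 793, 710 and 845 normalised counts and its KO libraries 818, 701 and 717, so the groups overlapped. The log2 change was -0.07 (SE 0.17, limma adjusted p = 0.878). Per kilobase of its kept transcript it was the most abundant member in both genotypes, at 414 ± 35.9 in WT and 394 ± 33.6 in KO normalised counts per kilobase (SD, n = 3 each). The next member in WT, Slc27a5, stood at 97.0 ± 32.4 on the same scale.

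Of the 8 other genes listed for the classical route and side chain, all 8 were tested, all 8 had a log2 change above 0 and 4 rose. One of the 8, Hsd3b7, shares 75.1% of its transcript with Gm49388 on the same strand, so its reads may not be its own. Over all tested genes 54.2% had a log2 change above 0 and 2.09% passed as higher. Scp2, a sterol carrier with the peroxisomal thiolase of side-chain shortening, rose from 1327 ± 447 to 4856 ± 1343 normalised counts, with an SE of 0.28 around a log2 change of 1.88 (limma adjusted p = 0.0191). Amacr, the racemase that prepares the side chain, rose from 105 ± 10.3 to 400.1 ± 139, and Acox2, the oxidase of that step, from 66.9 ± 36.6 to 374 ± 182. Akr1c6, a reductase of a family of similar genes whose reads may be shared, rose from 434 ± 282 to 2426 ± 1229. Acox2, at an adjusted p of 0.0455, was no longer called when any of 5 of the 6 libraries was left out, with limma adjusted p reaching 0.177. Without KO replicate 3, limma adjusted p for Scp2, Amacr and Akr1c6 were 0.082, 0.113 and 0.114. Akr1c6 also lost its call without WT replicate 2 (limma adjusted p = 0.0601) or WT replicate 3 (0.0703), and Amacr without WT replicate 1 (0.0687). Of 7 genes of the alternative routes and later hydroxylations, 6 were tested and 0 passed. Cyp7b1, the oxysterol hydroxylase of the acidic route, had a log2 change of 1.01, Ch25h, the cholesterol 25-hydroxylase, of -0.74, and Cyp2c70, which makes muricholic acids in mice, of 0.86.

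The conjugation enzyme Baat (ENSMUSG00000039653), also on chromosome 4 (49489422 to 49506557, minus strand), had the smallest p of the 10 genes. It stood at 55.6, 21.0 and 53.9 normalised counts in WT replicates 1, 2 and 3 and at 486, 242 and 462 in KO replicates 1, 2 and 3. Every KO library was above 4 times the highest WT library. Mean levels of Baat rose from 43.5 ± 19.5 in WT to 396 ± 134 in KO, a log2 change of 3.21 with an SE of 0.44 (limma adjusted p = 0.0147). Of 17 alternative fits, 16 kept the call, and without KO replicate 3 the adjusted p was 0.0748. Slc27a5, the bile acid coenzyme A ligase on chromosome 7 at 12988346 to 12998192, stood at 180.3, 308 and 178 in WT and at 377, 499 and 797 in KO replicates 1, 2 and 3. Its groups did not overlap, although WT replicate 2 came close to KO replicate 1, and the log2 change of 1.30 (SE 0.32, limma adjusted p = 0.0697) did not pass. Of the 3 other conjugation genes, 0 passed: the acyltransferase genes Acnat1 and Acnat2, which are similar in sequence, had log2 changes of 1.42 and 1.56, and the peroxisomal thioesterase gene Acot8 of -0.07.

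None of the 3 members among the uptake and export genes passed over all genes. Slc10a1, which encodes the sodium-taurocholate cotransporter NTCP (chromosome 12, 80953183 to 80968705), stood at 107, 134 and 59.5 normalised counts in WT and at 174, 305 and 415 in KO replicates 1, 2 and 3. Its WT values did not reach the lowest KO value (log2 change 1.55, SE 0.40, limma adjusted p = 0.0792). Slco1b2, the sodium-independent organic anion transporter OATP1B2 (chromosome 6, 141629518 to 141686646), stood at 125, 88.2 and 156 in WT and at 176, 164 and 384 in KO. KO replicate 3 alone was far above the WT range, and the log2 change was 0.89 (SE 0.38, limma adjusted p = 0.252), or 0.50 without KO replicate 3. Abcb11, the bile salt export pump BSEP (chromosome 2, 69238282 to 69342616), stood at 54.6, 44.1 and 94.3 in WT and at 156, 170.4 and 273 in KO. The groups did not overlap (log2 change 1.65, SE 0.38, limma adjusted p = 0.0554). Without KO replicate 1, Abcb11, Slc10a1 and Slc27a5 passed, with limma adjusted p of 0.0468, 0.0321 and 0.0344. In that fit 809 of all genes passed, against 381 with all 6 libraries. Without KO replicate 2 the limma adjusted p of these genes were 0.145, 0.247 and 0.180, and without KO replicate 3 they were 0.223, 0.266 and 0.242. Of the fits without a WT library, only that without WT replicate 3 called any of them, Abcb11 (0.0481).

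Among 5 other uptake genes, 4 were tested and 1 rose, where 2.09% of all tested genes passed as higher. Slco1a1, a male-biased organic anion transporter of mouse liver, had 1 read in WT and 234 in KO in all; scaled by the factors this was 322 times, with 95% counting limits of 57.2 and 12766 (limma adjusted p = 0.0144). Its fitted log2 change depends on the pseudocount, at 5.95 with 1, 6.74 with 0.5 and 3.95 with 5. The limma adjusted p was 0.101 without KO replicate 3. Ephx1, an epoxide hydrolase also described in bile acid uptake, had a log2 change of 0.53, and Slco2b1 of -0.12. Of 9 other export genes, 7 were tested and 0 passed. The sterol transporter genes Abcg5 and Abcg8 had log2 changes of 2.08 and 1.44, and the phospholipid flippase gene Abcb4 of -0.02. Abcc3 and Abcc4, which export bile acids across the basolateral membrane, were at -0.19 and 0.02. Slc51a and Slc51b, the subunits of the basolateral exporter OST, had 2 and 1 reads over all 6 libraries and were not tested.

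Of the sensing genes, Nr1h4 rose. Nr1h4 (ENSMUSG00000047638, chromosome 10, 89454234 to 89533585) stood at 63.9, 26.3 and 34.3 normalised counts in WT replicates 1, 2 and 3 and at 180.3, 124 and 178 in KO replicates 1, 2 and 3. The groups did not overlap, and KO replicate 2 was the KO library nearest to WT (log2 change 2.01, SE 0.40, limma adjusted p = 0.042). edgeR's quasi-likelihood test gave an adjusted p of 0.0508, and the call was lost in 5 of the 6 fits without 1 library, at up to 0.173 without KO replicate 3. Nr0b2 (ENSMUSG00000037583, chromosome 4, 133553376 to 133556536) stood at 17.5, 2.10 and 30.3 in WT and at 65.6, 62.0 and 44.8 in KO replicates 1, 2 and 3. WT replicate 2 held only 2 reads of it, the groups did not overlap, and the log2 change of 2.25 (SE 0.82, limma adjusted p = 0.185) did not pass. Without WT replicate 2 that change was 1.26.

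Of 18 other sensing and control genes, 15 were tested, 11 had a log2 change above 0, against 54.2% of all tested genes, and 1 rose. Hnf4a, the master regulator of hepatocyte genes, rose from 180.4 ± 125 normalised counts in WT to 1085 ± 219.9 in KO (limma adjusted p = 0.0205), a log2 change of 2.79, and had an adjusted p of 0.0847 without KO replicate 3. The xenobiotic receptor genes Nr1i2 and Nr1i3 had log2 changes of 3.05 and 2.63 (limma adjusted p = 0.0774 and 0.111). Nr1i3, Acot8, Ch25h, Slco2b1, Slc51a, Slc51b, Abcg5 and the macrophage marker Csf1r share exon sequence with a gene on the opposite strand. For Csf1r this covers 18.6% of its transcript, and for Nr1i3 72.5%. Nr5a2, whose product activates Cyp7a1 and Cyp8b1, was at 0.82 (limma adjusted p = 0.201). Of the other bile acid receptors, S1pr2, a receptor for conjugated bile acids, had a log2 change of -0.21, and Gpbar1, the membrane receptor TGR5, had 4 reads in WT and 10 in KO, all 10 in replicate 3, and was not tested. In all, 6 of the 43 tested genes of the pathway beside the members rose and 0 fell, with a median log2 change of 0.64. Over all tested genes 2.09% passed as higher and 0.352% as lower, and the median was 0.05. Slco1a1 met the filter's level in 0 WT and 3 KO libraries, so it entered the test only through the group in which it is high, while the other 5 met it in every library. These counts describe the genes that passed the filter. The gene lists were written with earlier results of these data known. The plot of log2 changes by role shows all tested pathway genes.

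**Figure D3:**
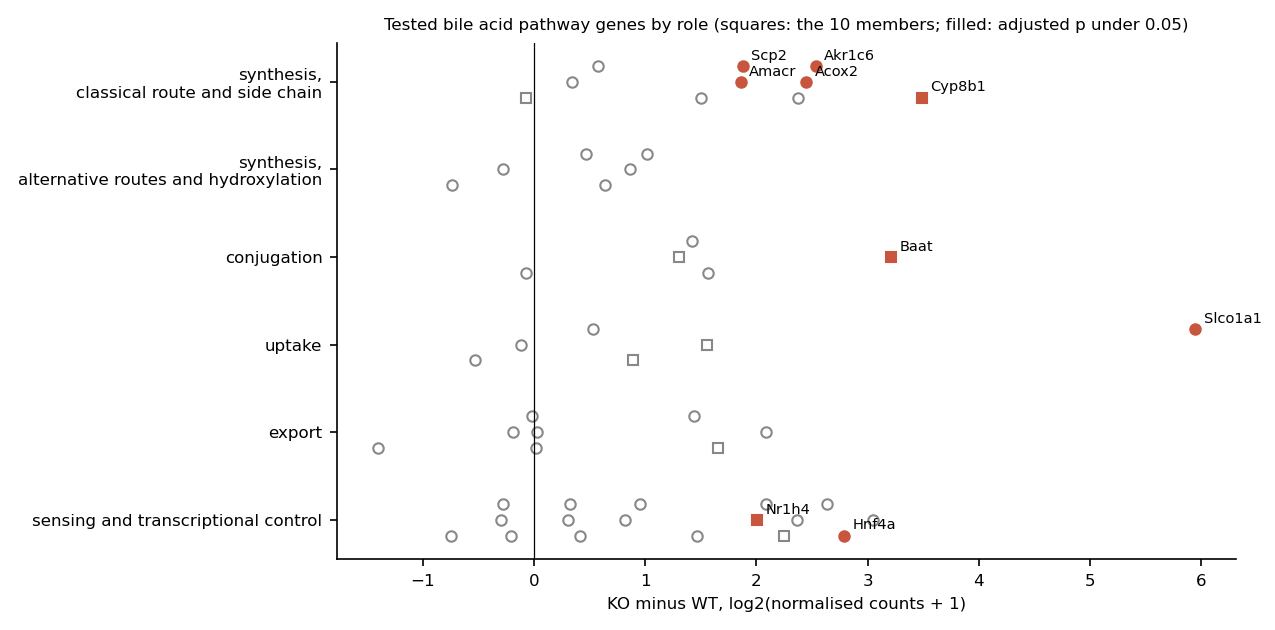
KO minus WT difference on the scale of log2(normalised counts + 1) for the tested bile acid pathway genes, in 1 row for each role; squares are members of the 10, circles are other genes of the lists, and filled symbols had a limma adjusted p under 0.05. The named filled symbols all lie to the right of 0, and the place of Slco1a1, with 1 WT read, is set by the pseudocount.

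Each member was next set against the hepatocyte genes of its own library, by subtracting the mean log2 level of the 20 hepatocyte markers. That mean was 9.90 ± 0.52 for WT against 11.89 ± 0.48 for KO (SD, n = 3 each), a difference of 1.99. On this relative scale Cyp7a1 stood at -5.54, -6.90 and -3.84 in WT replicates 1, 2 and 3. With 0 reads in KO replicates 1 and 2, its values there are only the negative of the marker mean, a floor set by the pseudocount, so no difference is drawn from them. Cyp27a1 stood at -0.29 ± 0.64 and -2.35 ± 0.54, and its KO values lay below its WT values. Slc27a5 and Slco1b2 likewise lay lower in KO without overlap, with differences of -0.68 and -1.09, the latter -0.61 without WT replicate 3. Lower relative levels were common, with a median difference of -1.94 over all tested genes, of which 82.3% passed limma's test as lower. Slc27a5 and Slco1b2 fell less than that median, and Cyp27a1, at -2.06, lay close to it. The share of all genes without overlap was not counted on this scale, so the lack of overlap sets none of the members apart. Baat, at 1.23, and Cyp8b1, at 1.499, had higher means in KO, but their libraries overlapped, and without WT replicate 2 these differences were 0.58 and 0.81. Abcb11, Slc10a1, Nr1h4 and Nr0b2 had differences of -0.34, -0.44, 0.02 and 0.26, and overlapped too. Exact two-sided permutation p were 0.1, the smallest possible, for Cyp27a1, Slc27a5 and Slco1b2, 0.2 for Cyp8b1 and Slc10a1, 0.3 for Baat, 0.8 for Nr0b2 and 0.9 for Abcb11 and Nr1h4.

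Limma across all genes on the relative scale gave SEs of 0.51 to 0.82 for the 9 members that passed the filter, and Cyp27a1 (adjusted p = 0.000195) and Baat (adjusted p = 0.0391) passed. Cyp27a1, whose level changed by only -0.07, had a relative difference of -2.06, close to the median of all genes. Its call therefore does not set it apart from them. On that scale 82.5% of all genes passed, 82.3% as lower and 0.147% as higher, with a median of -1.94 over all genes. The subtracted mean is common to all genes, so its error enters every gene alike. Limma gave each gene the spread typical of its mean level in place of the gene's own spread. These p-values are therefore less certain than those of the levels. With Alb, Ttr, Apoa1, Fgb and Ahsg alone as reference, neither Cyp27a1 nor Baat passed. The plot of both differences shows the 10 genes together.

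**Figure D4:**
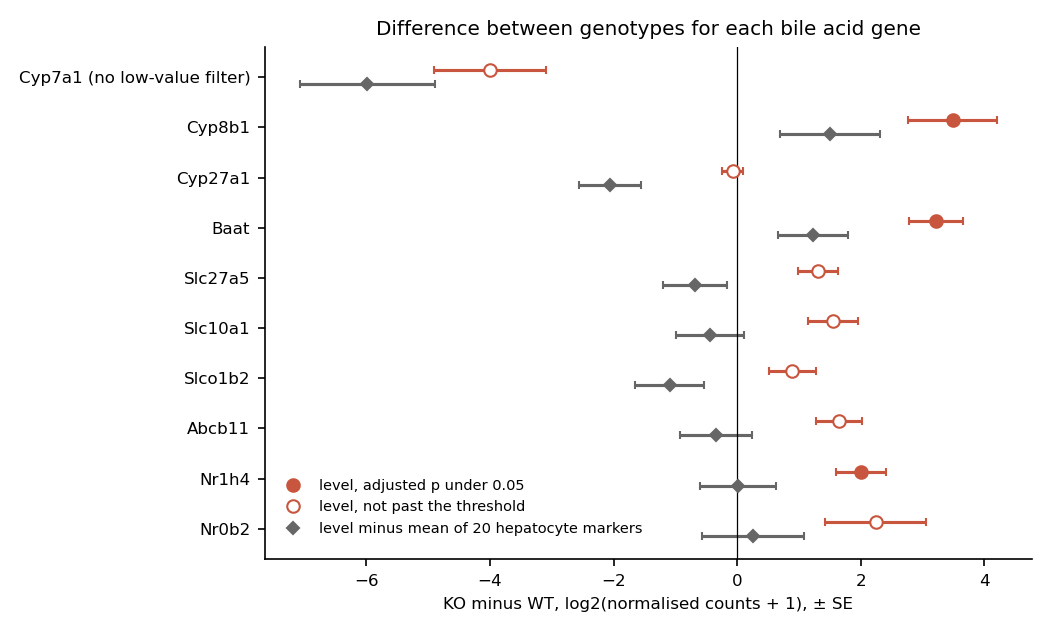
KO minus WT difference of each member with its SE, in log2 units; red circles give the level (filled where the adjusted p was under 0.05) and grey diamonds the level minus the mean of 20 hepatocyte markers, with Cyp7a1 from the fits without a low-value filter. Red circles lie to the right of 0 for 8 genes, while the grey diamonds of the other 9 genes run from -2.06 for Cyp27a1 to 1.499 for Cyp8b1; both symbols of Cyp7a1 rest on 2 KO reads and depend on the pseudocount.

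The members did not vary alike within a genotype. Cyp8b1, Slc10a1, Slc27a5 and Abcb11 were highest of the KO libraries in replicate 3 and lowest in replicate 1. Baat and Nr1h4 were highest in KO replicate 1 and lowest in KO replicate 2, and Nr0b2 was highest in KO replicate 1 and lowest in KO replicate 3. Slc10a1 and Slc27a5 were lowest of the WT libraries in replicate 3, whereas Cyp7a1, Cyp8b1, Cyp27a1, Baat, Slco1b2, Abcb11, Nr1h4 and Nr0b2 were lowest in WT replicate 2. Hepatocyte markers showed both orders. Of the 20, 16 were highest of the KO libraries in replicate 3 and 4 in replicate 1. Alb, Ahsg and Apob, which encode secreted plasma proteins, were lowest in WT replicate 3 and KO replicate 1. The amino acid catabolic genes Tat, Hpd and Tdo2 were lowest in WT replicate 2 and highest in KO replicate 1, as Baat and Nr1h4 were. These orders are descriptions of 6 libraries and were not tested.

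**Figure D5:**
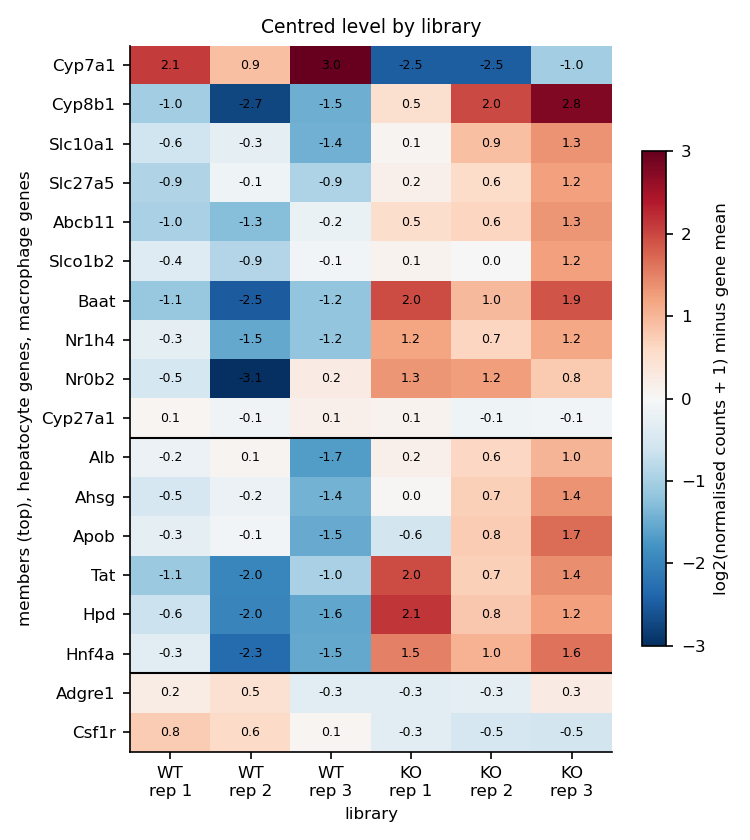
Level of the 10 members, 6 hepatocyte genes and 2 macrophage genes in each library, as log2(normalised counts + 1) minus the mean of the gene over 6 libraries, with the value printed in each cell. Cyp7a1 is above its mean in the 3 WT libraries, Cyp27a1 stays near 0 throughout, and Baat and Nr1h4 have the library order of Hpd.

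Per kilobase of transcript, the order of the members differed between genotypes. In WT, Cyp27a1 was followed by Slc27a5 (97.0 ± 32.4 normalised counts per kilobase), Slc10a1 (59.9 ± 22.6), Slco1b2 (37.1 ± 10.2), Baat (22.4 ± 10.1) and Nr1h4 (20.6 ± 9.85). Nr0b2 (14.7 ± 12.5), Abcb11 (12.8 ± 5.27), Cyp7a1 (6.02 ± 4.08) and Cyp8b1 (4.19 ± 2.39) came last. Apart from Cyp27a1, neighbours in this order differed by less than the sum of their SDs. In KO the order was Cyp27a1, Slc27a5 (244 ± 94.3), Baat (204 ± 69.2), Slc10a1 (178 ± 72.0), Nr1h4 (79.8 ± 15.8), Slco1b2 (73.0 ± 37.4), Cyp8b1 (56.8 ± 38.6), Nr0b2 (50.7 ± 9.79), Abcb11 (39.8 ± 12.7) and Cyp7a1 (0.135 ± 0.234). Cyp27a1 and Slc27a5, Slc10a1 and Nr1h4, and Abcb11 and Cyp7a1 were the neighbours that differed by more than their summed SDs.

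The genes most like the members were sought by Pearson correlation of log2 levels over the 6 libraries, among 11031 genes with a mean of at least 100 normalised counts. For the mean profile of the 9 members that passed the filter these were Txndc15, Gchfr, Sardh, Cpxm1 and Ahr, at r of 0.992, 0.988, 0.987, 0.987 and 0.980. For Cyp27a1 alone they were Pdpk1, Ms4a4b, Ly6c2, Nfatc2 and Trp53inp1, at 0.996, 0.992, 0.983, 0.978 and 0.974. These libraries share a genotype split and the best of many genes were picked, so the correlations are a description.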

How the data were processed

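F4/80-selected liver cells of CCl4-treated mice gave 6 poly(A) RNA libraries made with a stranded kit, per the labels' protocols. Tools named in the submitters' processing notes are DESeq 1.8.3, HTSeq 0.5.3, STAR 2.4.0k, bcl2fastq 2.17 and SAMtools, with build GRCm38.p4. Counting options such as strand use are not given in the sources. Each deposited table holds a signal per transcript that the file headers name normalised counts, a read count the authors divided by 1 factor per library. Dividing each value by the smallest value above 0 of its library gave a whole number (tolerance 0.001) for 100% of values, and these were used as reads. Transcripts (78332 of 79382) were matched to genes in GENCODE M21 of GRCm38.

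The 15619 genes kept by filterByExpr were tested with limma 3.58.1 (trended prior, log2(value + 1), genotype only, two-sided, Benjamini-Hochberg adjusted over all genes, calls under 0.05). edgeR 4.0.16 on the recovered reads called 282 genes, and DESeq2 1.42.0 was a further alternative. Fold changes on this scale understate changes of low genes. Fits without the low-value filter by edgeR and on the relative scale were added after seeing the data. Named genes were the members, every called pathway gene, up to 5 of smallest p per role, up to 3 markers per list with Alb, Adgre1 and Csf1r, and the 5 genes most correlated with the members or Cyp27a1 (not all are printed). Abcb4, S1pr2, Nr1h3, Gpbar1, Slc51a, Slc51b, Ahsg and Apob fall outside this rule and were chosen after their values were seen. Members and lists were chosen with earlier results of these data known. On simulated counts for KO against WT (15279 genes), recovery by limma was 22% at a log2 change of 1, 76% at 2, 90% at 3 and 94% at 4, with 50 genes at each size.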

Additional observations from a re-analysis of the deposited data

How the results depend on the processing

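Depth of 10790842 to 22157238 reads and 3 libraries per group limit these results, and Cyp7a1, Cyp8b1 and Nr0b2 rest on few reads in WT. Of all genes, 381 passed in the test as reported, and of the members 3. DESeq2 gave 1409 and 6, edgeR without a low-value filter 1115 and 7, limma without the filter 293 and 1, and summed transcripts 233 and 2. Leaving out 1 library gave 8 to 809 genes and 0 to 5 members; without KO replicate 3 there were 8 and 0, and without KO replicate 1 809 and 5. The cause of these shifts was not tested. With replicate number as a block, 539 genes and 4 members passed, Abcb11 among them (adjusted p = 0.0377). Same-numbered libraries had correlations of deviations of -0.01, 0.09 and -0.14, and differently numbered ones ran from -0.13 to 0.14. With 3 libraries per group these values cannot decide whether the numbers pair libraries. Members passing relative to hepatocyte markers numbered 2, but 1 with a pseudocount of 5, 0 with 5 reference markers, 1 with the replicate block and 1 to 3 without 1 library. The 9 members that passed the filter kept their direction of level in all 17 alternatives, and Cyp7a1 in the 5 run for it. On the relative scale, Abcb11 turned to 0.053 with 5 reference markers and 0.27 without WT replicate 3. Nr1h4 turned to -0.081 with a pseudocount of 5, -0.45 without WT replicate 2 and -0.23 without KO replicate 1, and Nr0b2 to -0.18 with a pseudocount of 5 and -0.92 without WT replicate 2. Leave-one-out ranges there were -0.76 to 0.27 for Abcb11, -0.45 to 0.27 for Nr1h4 and -0.92 to 1.24 for Nr0b2.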

Other observations

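Abcc2, which encodes the canalicular conjugate exporter MRP2, held 88.6, 83.0 and 144 normalised counts in WT replicates 1, 2 and 3 and 91.7 and 158 in KO replicates 2 and 3, but 2 reads, or 2.98, in KO replicate 1. Nr1h3, which encodes the oxysterol receptor LXR alpha and is strongly expressed in macrophages, stood at 1774, 3366 and 882 in WT and 1146, 882 and 1098 in KO replicates 1, 2 and 3, and its groups overlapped. Star, which carries cholesterol into mitochondria, stood at 83.4, 27.3 and 51.1 in WT and 35.8, 94.1 and 133 in KO replicates 1, 2 and 3 (limma adjusted p = 0.626).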
